A study of Drosophila melanogaster with 4 samples.

Results

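The Cpr genes encode the largest family of insect cuticle proteins, and resilin encodes a related elastic protein. Genes were chosen by name: every gene of the deposited table whose FlyBase symbol is Cpr followed by a number, plus resilin. This gave 71 of 15682 genes, of which 32 were expressed highly enough in fly heads to test. Of the rest, 20 were listed at 0 in all 4 libraries and 19 had low values. These genes are called the family below, a set chosen by symbol and not by protein sequence. The libraries hold poly(A) RNA of Drosophila melanogaster heads: 2 come from w1118 flies without MJDtr-78Q, the controls, and 2 from flies that express it. This transgene encodes a shortened human ataxin-3 with an expanded polyglutamine tract and is used to model Machado-Joseph disease. The sources used here give neither the driver nor the age or sex of the flies, and nothing says that the libraries of a group came from separate sets of flies, so p-values measure only the spread between these samples.

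Cuticle is a layered matrix of chitin fibres and proteins that epidermal cells secrete on their outer face. Cpr proteins carry the Rebers-Riddiford sequence, a chitin-binding domain, and different mixtures of them go into soft and hard cuticle. Most cuticle genes are transcribed in pulses around moults and eclosion, and fewer are active in mature adults. In the adult head cuticle forms the capsule, antennae, mouthparts and tracheae, and the corneal lens of each facet of the eye is also a cuticular structure. Resilin is a rubber-like protein of elastic tendons and joints.

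In MJDtr-78Q heads 15 of the 32 tested genes of the family were at least 2-fold higher, and the others ranged from smaller positive differences to levels below control. For these 15 each MJDtr-78Q library exceeded each control, where 3.08% of all 9049 tested genes did so. None of the 32 was at least 2-fold lower with groups that did not overlap, against 2.08% of all tested genes. The 15 were Cpr49Ac, Cpr56F, resilin, Cpr64Aa, Cpr50Cb, Cpr76Bd, Cpr97Ea, Cpr100A, Cpr11A, Cpr92F, Cpr62Bc, Cpr76Bc, Cpr97Eb, Cpr47Ef and Cpr76Bb, in order of size. Without a threshold on size, 20 genes were higher in both MJDtr-78Q libraries than in both controls and 3 were lower, against 14% and 15.5% of all tested genes. Differences are log2 values, MJDtr-78Q minus control, on the log2(count + 1) scale with all 4 libraries quantile normalized as 1 set and n = 2 per group. Their median over the 32 genes was 0.89, with quartiles of 0.09 and 1.37, where the median of all tested genes was -0.02.

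With 2 libraries per group, no gene of the family passed limma with Benjamini-Hochberg adjustment over all tested genes. Of all 9049 tested genes 0 passed, or 0%, and the lowest adjusted p was 0.512, while the lowest of the family was 0.607. At an unadjusted p under 0.05, 13 of the 32 were higher and 0 were lower, against 3.46% and 2.42% of all tested genes. Without control library 2 the family's median was 0.61, where that of all tested genes was -0.01, and 9 of the 15 were still at least 2-fold higher. In that fit 10 of 31 genes of the family were at least 2-fold higher without overlap, beside 179 of all 8949. The 6 of the 15 that were under 2-fold without that library were Cpr100A, Cpr11A, Cpr49Ac, Cpr62Bc, Cpr76Bb and Cpr97Eb. With each library left out in turn 7 genes were always among those at least 2-fold higher: Cpr50Cb, Cpr56F, Cpr64Aa, Cpr76Bd, Cpr92F, Cpr97Ea and resilin. Without MJDtr-78Q library 2, Cpr65Au, Cpr60D and Cpr49Af were at least 2-fold lower, at -1.63, -1.56 and -1.26. They were 3 of 32 genes of the family, where 528 of all 9137 genes tested in that fit were at least 2-fold lower without overlap. Without control library 1, Cpr65Au and Cpr60D were at -1.33 and -1.01, 2 of 31 genes of the family, beside 284 of all 8953.

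**Figure D1:**
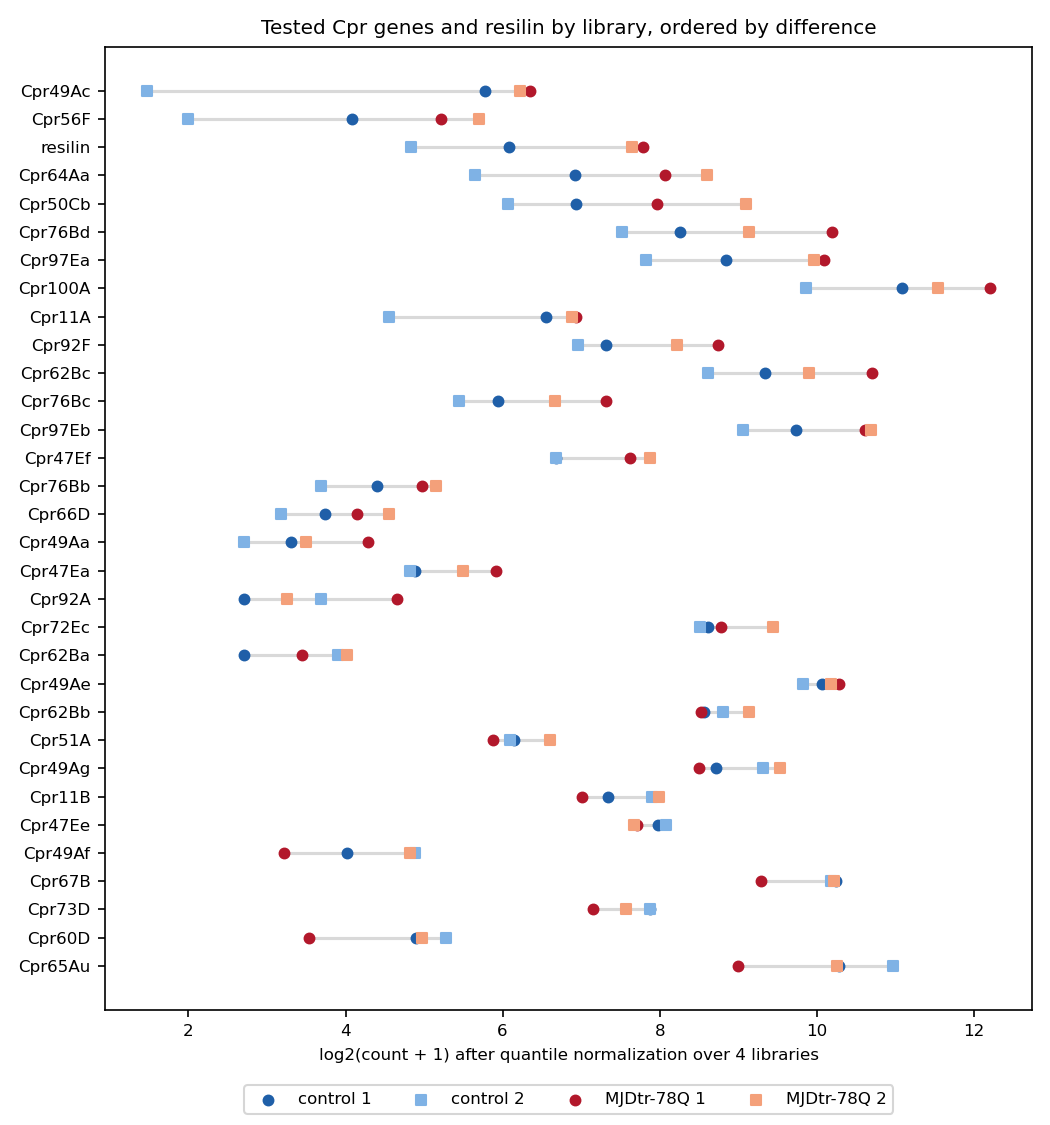
Normalized log2(count + 1) of the 32 tested genes (x axis) in each of the 4 libraries, 1 row per gene, ordered by the difference between groups. For the 15 genes from Cpr49Ac down to Cpr76Bb both MJDtr-78Q libraries lie to the right of both controls. Control library 2 lies to the left of control library 1, for Cpr47Ef by only 0.004.

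All genes are measured in bulk heads, where fewer cells of a type and less RNA per cell cannot be told apart. Back-transformed totals of the deposited values were 7147717 and 7147867 for the controls, against 3111393 and 3111583 with MJDtr-78Q, nearly equal within a group, so they do not give the depth. Of all tested genes 14% were higher and 15.5% lower without overlap, to be set beside the counts of markers that follow. Photoreceptor markers, headed by the opsin gene ninaE, were present, and their summed normalized level was 142434 and 142971 in the controls, against 74482 and 88910 with MJDtr-78Q, with 9 of 12 tested markers lower without overlap. Muscle markers summed to 47039 and 52593 in the controls, against 61087 and 89506 with MJDtr-78Q, with 5 of 10 higher without overlap and 0 lower. Hemocyte markers summed to 4060 and 5426, against 5667 and 10140, with 4 of 8 higher without overlap, and tracheal markers to 3579 and 5674, against 8362 and 12508, with 3 of 5 higher without overlap. Those 3 tracheal markers, serp, verm and Gasp, are also counted in the lists of chitin and cuticle genes below. The tracheal markers trh and pio overlapped between groups. With MJDtr-78Q library 2 left out, 8 of 9 muscle, 8 of 8 hemocyte and 5 of 5 tracheal markers were higher without overlap. So were 3829 of the 9137 genes tested in that fit. With control library 1 left out, 7 of 8 hemocyte markers were higher without overlap, beside 2121 of 8953 tested genes. The criterion is looser with fewer libraries, so the share of 14% does not apply to these counts. The sums of fat body markers overlapped between groups, from 137023 to 144322 and from 119114 to 148088, as did glia (13159 to 15057 and 12802 to 17136) and neuron markers (7770 to 10476 and 7021 to 14976). Gene by gene, 3 of 10 fat body markers were higher and 1 lower without overlap, all at least 2-fold. Of 7 glia markers 0 were higher and 3 lower without overlap, and of 5 neuron markers 1 was higher and 0 lower. No gene of these lists was at 0 in all libraries, but the chosen markers wupA (muscle), PPO1 (hemocyte), btl (trachea) and para (neuron) were not found by symbol. The part of the mix of cells in the differences of cuticle genes was not tested.

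Resilin (FBgn0034157, 2R, positions 12667409 to 12670676; all positions are those of the deposited table, whose build is not given) stood at 6.09 and 4.84 in the controls, against 7.79 and 7.65 with MJDtr-78Q. The MJDtr-78Q libraries nearly coincided, and both stood clear of the controls, which were themselves 1.25 apart. Its difference was 2.26 (SE 0.46, 95% interval 1.07 to 3.45), or 4.79-fold, with limma adjusted p = 0.607. It ran from 1.64 when control library 2 was left out to 2.89 when control library 1 was left out.

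The third chromosome's right arm held 5 genes of the family, and all 5 were tested. At 97E, Cpr97Ea (FBgn0039480, 3R, positions 22908851 to 22913500) and Cpr97Eb (FBgn0039481, positions 22915425 to 22916852) lie on the same strand, 1924 bases apart. Cpr97Ea stood at 8.85 and 7.82 in the controls, against 10.09 and 9.97 with MJDtr-78Q, a difference of 1.69 (SE 0.40, interval 0.67 to 2.72). Its neighbour Cpr97Eb stood at 9.73 and 9.06 in the controls, against 10.62 and 10.68 with MJDtr-78Q, a difference of 1.25 (SE 0.31). Both genes of the pair were thus higher in each MJDtr-78Q library than in any control.

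Cpr92F stood at 7.32 and 6.96 in the controls, against 8.75 and 8.22 with MJDtr-78Q, a difference of 1.34 (SE 0.30, interval 0.57 to 2.11). Cpr100A, among the genes of the family with the highest levels, stood at 11.08 and 9.86 in the controls, against 12.20 and 11.55 with MJDtr-78Q. Its difference of 1.41 (SE 0.49) was close in size to the gap of 1.22 between the controls, and was 0.79 when control library 2 was left out and 2.01 when control library 1 was left out. The low gene Cpr92A stood at 2.71 and 3.69 in the controls, against 4.65 and 3.25 with MJDtr-78Q, so its groups overlapped.

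The 76B cluster (3L, positions 19510651 to 19531389, 20.7 kb) was the most uniform of the clusters with at least 3 tested genes. Its 3 tested genes were all at least 2-fold higher without overlap, with a median of 1.30. Cpr76Bd, which encodes the longest protein of the family (1231 residues), stood at 8.25 and 7.53 in the controls, against 10.20 and 9.14 with MJDtr-78Q. Its difference was 1.78 (SE 0.47, interval 0.57 to 2.99), or 3.43-fold. Cpr76Bc stood at 5.94 and 5.44 in the controls, against 7.31 and 6.66 with MJDtr-78Q, a difference of 1.30 (SE 0.34). Cpr76Bb, a short gene with 1 coding exon, stood at 4.39 and 3.69 in the controls, against 4.97 and 5.15 with MJDtr-78Q, a difference of 1.02 (SE 0.40, interval -0.03 to 2.07), which was 0.66 when control library 2 was left out. The 3 genes lie side by side on the same strand, and the fourth, Cpr76Ba on the other strand, was too low to test.

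**Figure D2:**
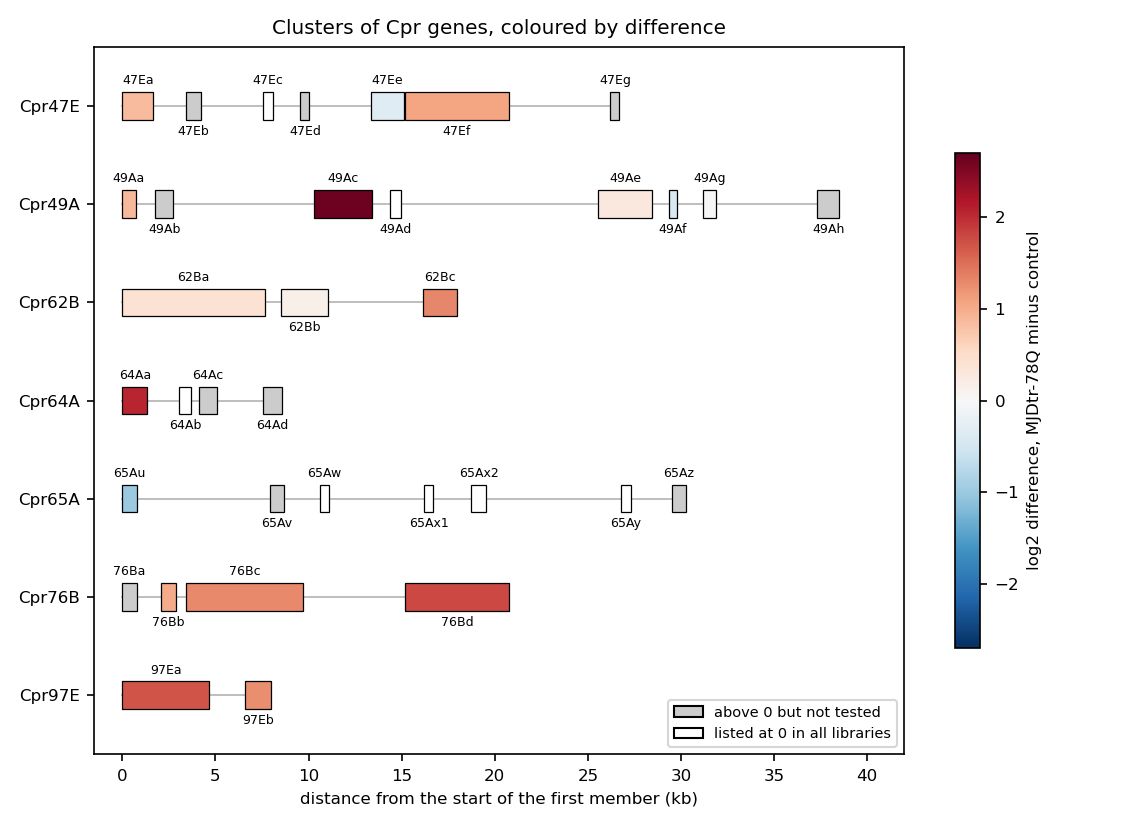
Clusters of the family drawn to scale, with the distance in kb from the first member's start on the x axis and 1 cluster per row; fill gives the log2 difference of tested genes, grey marks genes above 0 that were too low to test and white marks genes listed at 0. Tested genes of 76B and 97E are all above 1, whereas 47E and 49A hold genes above and below 0 side by side.

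Clusters elsewhere mixed genes that were higher with genes that were not. At 62B (3L, positions 1824128 to 1842084) all 3 genes lie on the same strand, and only Cpr62Bc, among these 3, was higher in both MJDtr-78Q libraries. Cpr62Bc stood at 9.33 and 8.62 in the controls, against 10.70 and 9.89 with MJDtr-78Q, a difference of 1.32 (SE 0.41). It was 0.92 when MJDtr-78Q library 1 was left out and 0.95 when control library 2 was left out. Cpr62Bb, 5115 bases away, stood at 8.57 and 8.80 in the controls, against 8.53 and 9.14 with MJDtr-78Q, a difference of 0.15 (SE 0.30) that was -0.15 when MJDtr-78Q library 2 was left out. Cpr62Ba differed by 0.42 (SE 0.63), with overlapping groups, and by -0.16 when control library 1 was left out. The cluster's median of 0.42 ran from 0.0351 when control library 1 was left out to 0.70 when MJDtr-78Q library 1 was left out, and was 0.11 when MJDtr-78Q library 2 was left out.

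At 47E (2R, positions 7139255 to 7165946) a convergent pair of neighbours had differences of opposite sign. Cpr47Ee and Cpr47Ef face each other with 57 bases between their ends in the deposited table. Cpr47Ef, which has 17 coding exons, was at 6.68 in both controls and at 7.62 and 7.87 in MJDtr-78Q libraries. Its difference of 1.07 (SE 0.23, interval 0.47 to 1.66) had limma adjusted p = 0.607 and was 0.93 when MJDtr-78Q library 2 was left out. Cpr47Ee stood at 7.98 and 8.08 in the controls, against 7.71 and 7.68 with MJDtr-78Q, a difference of -0.34 (SE 0.22, interval -0.90 to 0.23), with both MJDtr-78Q libraries below both controls. Whether reads were counted by strand is not given in the sources used here, so reads from the ends of this pair may have been assigned to either gene. The third tested gene, Cpr47Ea, differed by 0.85 (SE 0.31, interval 0.06 to 1.64), and the cluster's median was the same value.

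At 49A (2R, positions 8264174 to 8302675) 5 of 8 genes were tested, with a median of 0.29 that was 0.05 when control library 1 was left out and 0.44 when MJDtr-78Q library 1 was left out. Cpr49Ac had the largest difference of the 32 tested genes and the largest standard error. It stood at 5.78 and 1.48 in the controls, against 6.35 and 6.22 with MJDtr-78Q, so that control library 2 alone stood apart. The difference of 2.66 (SE 1.41, interval -1.01 to 6.32) was 0.50 when control library 2 was left out and 4.76 when control library 1 was left out. Its abundant neighbours were closer to the control level. Cpr49Ae stood at 10.07 and 9.83 in the controls, against 10.29 and 10.18 with MJDtr-78Q, a difference of 0.29 (SE 0.23, interval -0.32 to 0.89) with groups that did not overlap, which was 0.17 when control library 2 was left out. Cpr49Ag stood at 8.72 and 9.32 in the controls, against 8.51 and 9.53 with MJDtr-78Q, with a difference of 0.0013 (SE 0.44). The difference of Cpr49Ag was -0.51 when MJDtr-78Q library 2 was left out, -0.30 when control library 1 was left out, 0.51 when MJDtr-78Q library 1 was left out and 0.30 when control library 2 was left out. Cpr49Af differed by -0.44 (SE 0.69) with overlapping groups, and by 0.37 when MJDtr-78Q library 1 was left out, -1.26 when MJDtr-78Q library 2 was left out, -0.87 when control library 1 was left out and 0.0047 when control library 2 was left out. Cpr49Aa, at 3.31 and 2.71 in the controls, against 4.28 and 3.49 with MJDtr-78Q, differed by 0.88 (SE 0.58), or by 0.55 when control library 2 was left out.

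At 64A, 50C, 56F and 11A a single gene was tested, and each was a gene that was at least 2-fold higher. Cpr64Aa (FBgn0035510, 3L, positions 4207837 to 4209178) stood at 6.92 and 5.65 in the controls, against 8.07 and 8.61 with MJDtr-78Q, a difference of 2.05 (SE 0.49, interval 0.78 to 3.32). The other genes of its cluster, Cpr64Ab, Cpr64Ac and Cpr64Ad, were too low to test. Cpr50Cb stood at 6.93 and 6.07 in the controls, against 7.96 and 9.10 with MJDtr-78Q, a difference of 2.03 (SE 0.51, interval 0.72 to 3.34). On a linear scale Cpr64Aa was 4.15-fold and Cpr50Cb 4.09-fold higher, with no overlap of groups in either. Cpr56F stood at 4.08 and 1.99 in the controls, against 5.21 and 5.70 with MJDtr-78Q, a difference of 2.42 (SE 0.78) that was 1.35 when control library 2 was left out. Cpr11A stood at 6.55 and 4.55 in the controls, against 6.94 and 6.88 with MJDtr-78Q, a difference of 1.36 (SE 0.68, interval -0.41 to 3.12) that was 0.36 when control library 2 was left out and 2.35 when control library 1 was left out. In both, as in Cpr49Ac, the MJDtr-78Q libraries lay close together while the controls were far apart, by 2.09 for Cpr56F.

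Of the genes with the highest levels in control, most were under 2-fold apart between groups. Per kb of exon, control heads held a mean of 3085 normalized counts of Cpr65Au, 1171 of Cpr67B, 1121 of Cpr100A, 835 of Cpr49Ae and 813 of Cpr49Ag, the 5 highest of the family. Cpr65Au (FBgn0042119, 3L, positions 6124414 to 6125209) stood at 10.28 and 10.97 in the controls, against 9.001 and 10.26 with MJDtr-78Q. Both MJDtr-78Q libraries were below both controls, library 2 only just. The difference of -0.997 (SE 0.51, interval -2.31 to 0.32) was -0.37 when MJDtr-78Q library 1 was left out, -0.65 when control library 2 was left out and -1.63 when MJDtr-78Q library 2 was left out. Cpr67B stood at 10.24 and 10.17 in the controls, against 9.29 and 10.21 with MJDtr-78Q, a difference of -0.45 (SE 0.37) that was 0.0052 when MJDtr-78Q library 1 was left out and -0.92 when MJDtr-78Q library 2 was left out. Of these 5 genes Cpr100A alone was at least 2-fold higher. Cpr73D differed by -0.52 (SE 0.25, interval -1.18 to 0.13) with groups that did not overlap, which was -0.31 when MJDtr-78Q library 1 was left out, and Cpr60D by -0.83 (SE 0.57), which was -0.12 when MJDtr-78Q library 1 was left out. Cpr11B differed by -0.12 (SE 0.42) and by 0.36 when MJDtr-78Q library 1 was left out or 0.16 when control library 2 was left out. Cpr51A differed by 0.12 (SE 0.33) and by -0.24 when MJDtr-78Q library 2 was left out.

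**Figure D3:**
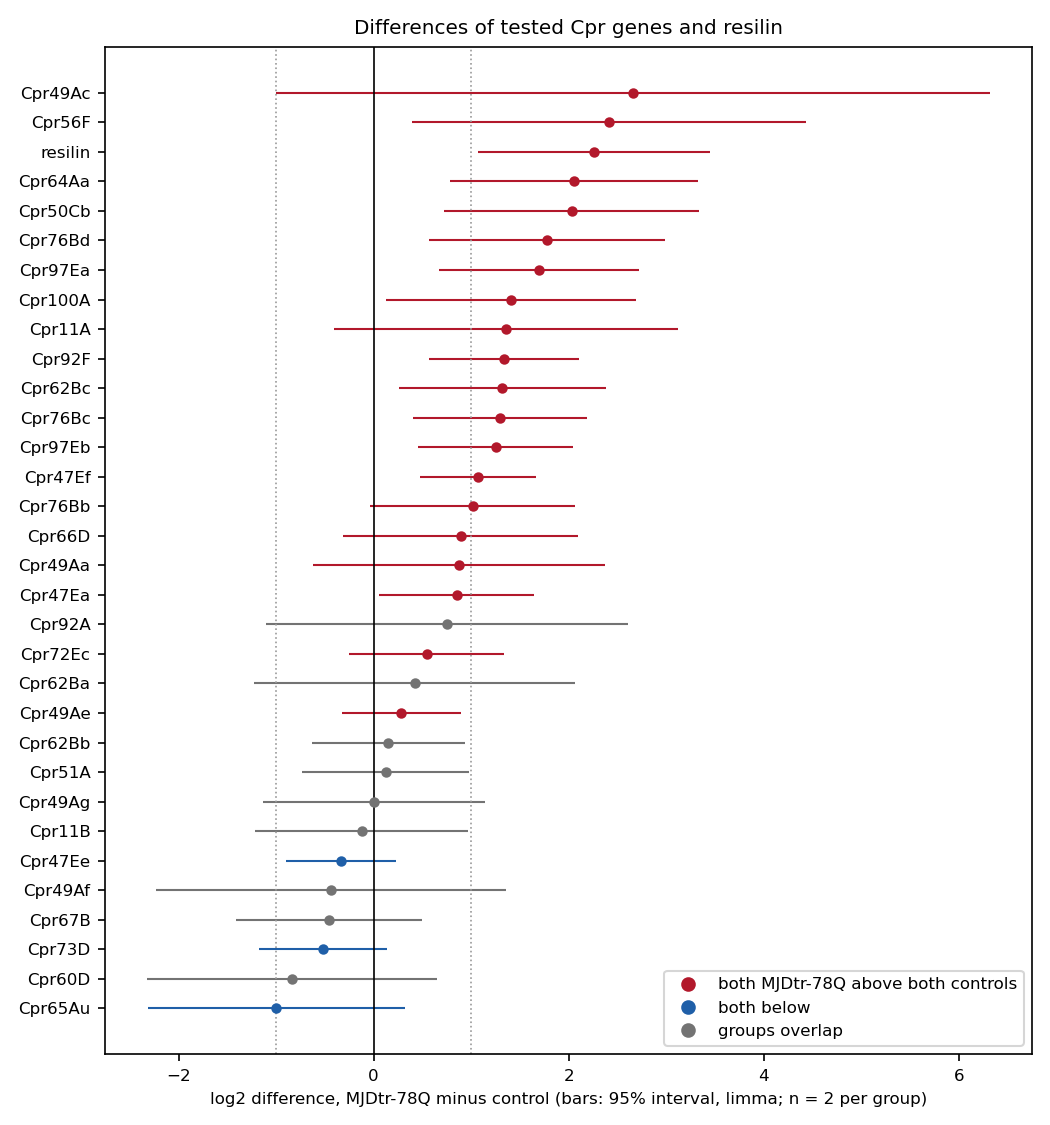
Log2 differences of the 32 tested genes, MJDtr-78Q minus control (x axis), with 95% intervals from limma (n = 2 per group) and colour by whether the groups overlap and in which direction; dotted lines mark 2-fold. The interval of resilin, 1.07 to 3.45, lies above 2-fold, whereas those of Cpr49Ac and Cpr11A cross 0.

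Cpr66D and Cpr72Ec encode proteins of the corneal lens, together with Crys and retinin, whose symbols were not among those chosen. Cpr72Ec stood at 8.61 and 8.51 in the controls, against 8.78 and 9.44 with MJDtr-78Q, a difference of 0.55 (SE 0.31, interval -0.25 to 1.34). It was 0.21 when MJDtr-78Q library 2 was left out and 0.87 when MJDtr-78Q library 1 was left out. Cpr66D stood at 3.73 and 3.18 in the controls, against 4.15 and 4.55 with MJDtr-78Q, a difference of 0.89 (SE 0.46, interval -0.31 to 2.09). Crys and retinin differed by 0.31 (SE 0.34) and 0.19 (SE 0.29), were -0.05 and 0.45 when MJDtr-78Q library 1 was left out, and 0.66 and -0.06 when MJDtr-78Q library 2 was left out. Thus 2 of the 4 lens genes, both with Cpr symbols, were higher in both MJDtr-78Q libraries than in both controls. Of the 4 lens genes 0 were 2-fold apart, or 1 (Cpr66D) when control library 1 or MJDtr-78Q library 1 was left out.

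The 39 genes that were not tested include most of the 65A cluster, all of the 65E, 67F and 78C clusters and all 5 genes of chromosome arm 2L. Of the 7 genes at 65A 1 was tested and 4 were listed at 0 in every library, and at 67F Cpr67Fa1 and Cpr67Fa2 were at 0. Cpr65Ax1 with Cpr65Ax2, and Cpr67Fa1 with Cpr67Fa2, are close copies whose shared reads a counter may discard, so their values of 0 are uncertain. Among untested genes Cpr50Ca was at back-transformed normalized counts of 1.29 and 0 in the controls, against 19.5 and 8.51 with MJDtr-78Q. Cpr49Ab was at 9.87 and 1.78, against 12.3 and 10.3, and Cpr64Ac at 8.51 and 8.08, against 6.87 and 11.9. The other untested genes stayed at or under 9.87. A gene could pass the filter through its MJDtr-78Q level alone, and 4 tested genes (Cpr49Aa, Cpr56F, Cpr62Ba and Cpr92A) had a control mean under 10. Of the other 28, 14 were at least 2-fold higher without overlap, where 2.55% of all 8927 genes with such a control mean were.

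**Figure D4:**
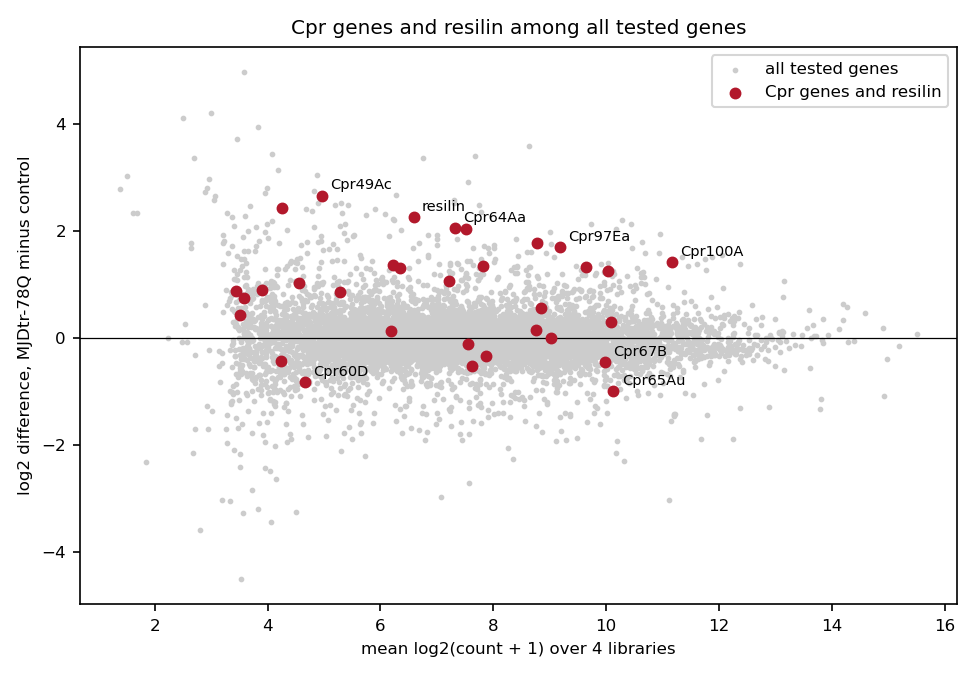
Log2 difference, MJDtr-78Q minus control (y axis), against mean log2(count + 1) over the 4 libraries (x axis) for all 9049 tested genes in grey and the 32 of the family in red. Genes of the family above 1 run from low levels (Cpr56F) to high ones (Cpr100A), and Cpr65Au and Cpr67B lie below 0 at high levels.

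The higher genes were on balance longer than the other tested genes of the family and had more coding exons. Neither was a criterion of choice, but length moved with the difference over all tested genes, as given below. The 15 had a median exonic length of 1378 bases and a median protein of 270 residues, against 992 bases and 144 residues in the other 17 tested genes. More than 2 coding exons were present in 10 of the 15, in 7 of the other 17 and in 6 of the 39 untested genes. Across the 32 genes Spearman's rho of exonic length and difference was 0.473, where it was 0.281 over all tested genes with a length, a description over genes that share the same 4 libraries. Exonic length also moved with the libraries: over all tested genes rho was 0.627 between length and the gap between the controls. In the shortest of 5 equal bins of all tested genes (up to 1183 bases) the median difference was -0.16, where the 18 genes of the family had a median of 0.59. In the next bin (1184 to 1796 bases) the medians were -0.10 and 1.36, the latter over 7 genes. Gaps within groups were larger: in the shortest bin library 1 minus library 2 had a median of -0.35 in the controls and -0.79 with MJDtr-78Q. In the longest bin these medians were 0.29 and 0.82. With the length trend of each library removed, 15 genes of the family were again at least 2-fold higher without overlap and the median was 0.99.

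**Figure D5:**
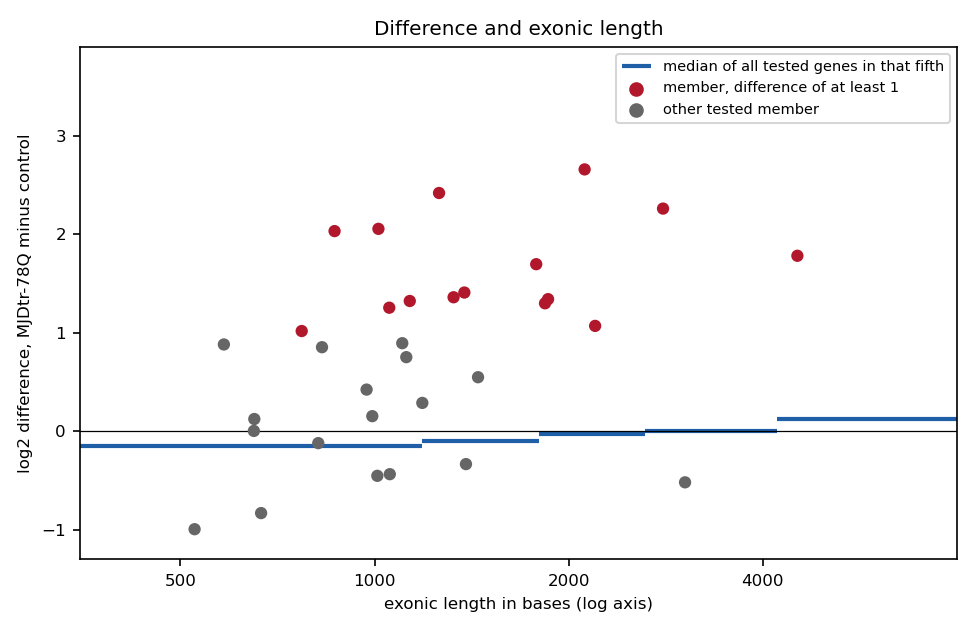
Log2 difference, MJDtr-78Q minus control (y axis), against exonic length in bases (log x axis) for the 32 tested genes, with blue lines for the median of all tested genes in each of 5 bins of length. In the shortest bin the line lies at -0.16, below the family's median of 0.59.

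The 15 genes also shared an order of the controls, which is not independent of their choice. A low value in control library 2 lowers the control mean and so raises the difference. After normalization control library 1 was above control library 2 in 15 of 15, by a median of 0.86, where the median gap was -0.10 in the other 17 tested genes. For Cpr47Ef the gap was 0.004, and its deposited values were equal in the controls, at 7.31. Of all genes at least 2-fold higher without overlap 87.8% had control library 1 above control library 2, against 47.8% of all tested genes. In 8 of the 32 genes the controls were at least 2-fold apart, which held for 2.86% of all tested genes, and in 7 of 32 the MJDtr-78Q libraries were, against 19.3%. Between the MJDtr-78Q libraries the 15 showed no common order, library 1 being the higher in 9. The part of this difference between the controls in the comparison of groups was not tested.

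Other genes of cuticle formation were examined in lists by function, whose counts of genes at least 2-fold apart without overlap stand beside 3.08% higher and 2.08% lower of all tested genes. With control library 2 left out 179 of 8949 tested genes were at least 2-fold higher without overlap. With another library left out 366 of 9101 to 706 of 9137 were. List sizes count only genes found by symbol. Not found were 3 chosen genes of chitin synthesis and remodelling, 5 of tanning, including Laccase2, and 5 of moulting, including br. Of 71 other cuticle protein genes 21 were tested, with a median of 0.86; 10 were at least 2-fold higher without overlap and 1, Ccp84Ag, was lower, at -2.85 (SE 0.48). Acp1, an adult cuticle protein gene, stood at 10.99 and 10.86 in the controls, against 12.48 and 12.13 with MJDtr-78Q, a difference of 1.37 (SE 0.25), and obst-A, whose product helps to organize the chitin matrix, differed by 1.76 (SE 0.56), or by 0.96 when control library 2 was left out. The upper quartile of the list was then 1.10, against 1.35 with all libraries, and 7 of 21 genes were at least 2-fold higher without overlap. With another library left out 8 to 11 were. This list was gathered partly by the start of the symbol and includes Cpn, a photoreceptor gene and no cuticle gene, at 0.15 (SE 0.24) or -0.02 when MJDtr-78Q library 1 was left out.

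Of 36 genes of chitin synthesis and remodelling 27 were tested, with a median of 0.67, and 10 were at least 2-fold higher without overlap and 0 lower. The upper quartile of 1.48 was 0.97 when control library 2 was left out and 1.83 when MJDtr-78Q library 2 was left out. Without control library 2, 4 of 27 were at least 2-fold higher without overlap, and with another library left out 9 to 12 were. The chitin synthase gene kkv stood at 8.80 and 7.25 in the controls, against 10.60 and 9.39 with MJDtr-78Q, a difference of 1.97 (SE 0.67) that was 1.19 when control library 2 was left out. The chitin deacetylase genes serp and verm differed by 1.57 (SE 0.38) and 1.59 (SE 0.52), and knk, whose product protects chitin from degradation, by 1.38 (SE 0.30). With control library 2 left out verm was at 0.99. The chitinase gene Cht5 stood at 10.41 and 7.95 in the controls, against 11.51 and 11.24 with MJDtr-78Q, so that control library 2 stood apart. Its difference of 2.19 (SE 0.82) was 0.95 when that library was left out and 3.42 when control library 1 was left out. The Idgf genes, which encode chitinase-like secreted proteins, ran from -0.52 (Idgf6) to 0.14 (Idgf5), values that were -0.13 and 0.58 when MJDtr-78Q library 1 was left out and -0.93 and -0.30 when MJDtr-78Q library 2 was left out. As tracheal markers, serp, verm and Gasp (1.31, SE 0.34) were at least 2-fold higher without overlap, whereas the tracheal regulator trh differed by 0.27 (SE 0.39) and pio by 0.17 (SE 0.27), or by -0.19 and -0.08 when MJDtr-78Q library 1 was left out.

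Of 16 tanning genes 13 were tested, with a median of 0.33, 2 at least 2-fold higher and 1 lower without overlap. The median was 0.53 when MJDtr-78Q library 1 was left out and 0.28 when control library 2 was left out. The tyrosine hydroxylase gene ple, which makes the precursor of dopamine for hardening and pigment, differed by 1.21 (SE 0.39), and ebony (e), whose product joins beta-alanine to dopamine, by 1.33 (SE 0.51). Both were smaller when control library 2 was left out, at 0.80 and 0.62. The lower gene was tan (t), which encodes the hydrolase that reverses this step and also acts in photoreceptors, at -1.89 (SE 0.50), or -1.26 when MJDtr-78Q library 2 was left out. Ddc, which makes dopamine, differed by -0.42 (SE 0.23). Of 27 genes of moulting hormone signalling and its regulators 22 were tested, with a median of 0.20, 5 at least 2-fold higher without overlap and 0 lower. The median was 0.02 when control library 2 was left out and 0.03 when MJDtr-78Q library 1 was left out. It was 0.51 when control library 1 was left out and 0.64 when MJDtr-78Q library 2 was left out. Without control library 2, 1 of 22 was at least 2-fold higher without overlap, and with another library left out 5 to 8 were. Eip74EF, an ecdysone-induced transcription factor gene, differed by 1.22 (SE 0.30), and rk, the receptor of the tanning hormone bursicon, by 1.04 (SE 0.40), whereas the ecdysone receptor gene EcR differed by 0.15 (SE 0.35) and ftz-f1, a regulator of late moulting genes, by -0.0028 (SE 0.34). The last 2 were at -0.24 and -0.37 when MJDtr-78Q library 1 was left out, and at 0.53 and 0.36 when MJDtr-78Q library 2 was left out. Eip74EF and rk were at 0.95 and 0.79 when control library 2 was left out. No gene of these lists passed limma over all tested genes.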

How the data were processed

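The deposited table holds log2 values of a count plus 1 for each gene, per the values themselves, and libraries of the same group share nearly the same distribution, which the groups do not: medians were 5.91 in control and 4.64 in MJDtr-78Q libraries. The values therefore appear quantile normalized within groups, a step no label records. The alternatives were other scalings, filters, pseudocounts and variance priors, a length correction, a replicate block and each library left out. Library preparation used a strand-marking TruSeq mRNA kit, per the labels' protocols, and HTSeq 0.6.1, TopHat2 2.0.10, Bowtie, cutadapt 1.2.1 and CASAVA 1.8.2 appear, per the submitters' processing notes. Build and annotation: not given in the sources used here. Such values no longer hold a library's own counts, so no count test was run and counting error is unknown.

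The 4 libraries were quantile normalized together, and genes with a back-transformed mean of at least 10 were tested two-sided in limma 3.58.1 (R 4.3.3) with a mean-variance trend. P-values were adjusted by Benjamini and Hochberg's method over all 9049 genes, at 0.05. The fit was also run on simulated independent counts with known changes. These held no length trend and no effect shared by replicate number, so that run does not give the error rate here. Gene IDs were matched to symbols in a reference table for 15002 of 15682 genes. Exonic and coding lengths, exon numbers and strands came from an Ensembl BDGP6 annotation, none of whose coordinates is printed; 95.5% of tested genes had a length. The members, lists and tests were chosen with earlier results of these data known. Genes named are resilin, both lens genes, those 2-fold apart without overlap, the 10 of lowest p, the 5 of highest level per kb, the extremes of each cluster with at least 3 tested genes, and untested genes reaching 10. Other genes were named after their values were seen.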

Additional observations from a re-analysis of the deposited data

How the results depend on the processing

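Replicate numbers in the labels are not said to mark a shared batch. Deviations of replicate 1 from the group means had r = 0.536 across genes between the groups. In limma with a replicate block, 387 of 9049 tested genes passed, 229 higher and 158 lower. At an unadjusted p under 0.05 in that fit 1 of the family was lower, beside 499 of all 9049. Of the family 15 passed over all tested genes, 14 higher and 1 (Cpr65Au) lower. Those 14 were the genes at least 2-fold higher without Cpr76Bb. With length correction 6 of 8641 tested genes passed, none of the family. At an unadjusted p under 0.05 in that fit 1 of the family was lower, beside 484 of all 8641. With no filter 1 of 51 family genes was at least 2-fold lower without overlap, beside 476 of all 12095. With a library left out that count was 0 to 3, beside 158 of 8949 to 528 of 9137 tested genes. At an unadjusted p under 0.05 the higher genes numbered 3 to 13 and the lower 0 to 4 with a library left out. The family's median was 1.25 with a mean of at least 50, and 0.61 to 1.08 with a library left out. The median at 47E was 0.95 with length correction, 0.37 with a mean of at least 50, 0.82 with median centring, 0.27 with no filter, 0.77 with a pseudocount of 5, 0.76 with upper-quartile scaling and 0.65 to 0.93 with a library left out. At 49A it was 0.88 with no filter, and at 62B 0.74 with a mean of at least 50 and 0.0351 to 0.70 with a library left out. Signs turned for 7 tested genes of the family, each with a library left out: Cpr11B ran from -0.60 to 0.36, Cpr51A from -0.24 to 0.48, Cpr62Ba from -0.16 to 0.70, Cpr49Af ran from -1.26 to 0.37, Cpr49Ag from -0.51 to 0.51, Cpr62Bb from -0.15 to 0.45 and Cpr67B from -0.92 to 0.0052. The causes were not tested, except that the filters change which genes count. With no scaling between groups all tested genes shift by a median of -1.24, and values were taken relative to it. The number of reads behind a value is unknown, and 2 libraries per group limit what can pass.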
